A study of Mus musculus with 12 samples.

Results

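Caveolae are flask-shaped pits of the plasma membrane, abundant in endothelial cells, fat cells, fibroblasts and muscle. Caveolins (Cav1, Cav2 and the muscle form Cav3) are membrane-inserted scaffold proteins, and cavins (Cavin1 to Cavin3 and the muscle form Cavin4) form a coat on the cytosolic side. Ehd2 is an ATPase at the neck of the pit, and the F-BAR proteins Pacsin2 and Pacsin3 bind and curve the membrane there. These 10 genes were found by symbol among the 54232 genes of the count table, each standing for 1 identifier, and 9 of them were among the 12897 genes that passed a filter on low counts. Cavin4 was also selected on its measured values over the treatments, a rise with trametinib alone, so its values are given as a description with no test. The other members were named for their place in the caveola.

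RNA was measured in 12 SVR tumors, 3 each after vehicle (control), trametinib, cediranib or both drugs (combination). SVR is a mouse endothelial angiosarcoma line, grown subcutaneously in young athymic nude mice, while the labels give the strain as C57BL/6. Vehicle, trametinib (a MEK inhibitor, 1 mg/kg), cediranib (an inhibitor of the VEGF receptors, 3 mg/kg) or both drugs together were given daily by gavage. RNA from whole tumors was enriched with exome probes, a method chosen because the RNA was degraded, so counts reflect probe coverage in addition to transcript abundance. All tumors carried the same cell line, so they stand for 1 line, and had the same kind of host, which lacks mature T cells. Tumor cells and host stroma are both of mouse origin and were not separated, so fewer cells of a type and less RNA per cell cannot be told apart. The labels end treatment at ulceration or a size limit, so time on drug can differ between tumors. By the methods each mouse received cells in a flank, and the labels give each tumor of a group its own number.

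The libraries held 9478865 to 11666094 counts. Levels are given as normalized CPM (counts scaled to the library total and a TMM factor), and folds as log2 fold changes with their standard error (SE) from 1 quasi-likelihood model in edgeR fitted to all 12 tumors. A gene was called at a false discovery rate (FDR, Benjamini-Hochberg over all genes tested) of 0.05 together with a log2 fold change of 1.5 or more in either direction, and changes at an FDR of 0.05 with any fold were counted separately. For a gene with 0 counts in a library, counting error alone allows up to 3 counts, or 0.251 to 0.349 CPM depending on the library. Dusp6, a phosphatase induced by ERK and a check on the MEK inhibitor, had 39.0 to 47.7 CPM in control, 1.98 to 4.54 in trametinib, 41.4 to 43.6 in cediranib and 10.2 to 13.9 CPM in combination treated tumors, and 9 of 15 tested genes of ERK output were called lower with trametinib. Pecam1 and Cdh5, defining genes of endothelium, were detected in all tumors, with 3.14 to 4.60 and 45.3 to 120 CPM in control tumors. The summed level of 24 skeletal muscle markers was 22021 CPM in control replicate 2 and 33855 CPM in trametinib replicate 2, against 37.1 to 2702 CPM in the other 10 tumors. The Cav1, Cavin3, Cavin4 and Pacsin3 results for trametinib against control are given with and without these 2 libraries.

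The sequences before the annotated start of 3 members are shown to set side by side a member that changed, the one selected on its values and the other muscle form. Cav1 was detected at over 60 CPM in every tumor, Cavin4 was high in trametinib treated tumors, and Cav3 was near the limit of detection. The windows are the 250 bases before the start in RefSeq, build GRCm38.p6, all on the plus strand, at chr6:17306085-17306334 for the first listed start of Cav1, chr4:48663264-48663513 for Cavin4 and chr6:112459255-112459504 for Cav3. Capitals mark matches to the E-box CANNTG.
Cav1: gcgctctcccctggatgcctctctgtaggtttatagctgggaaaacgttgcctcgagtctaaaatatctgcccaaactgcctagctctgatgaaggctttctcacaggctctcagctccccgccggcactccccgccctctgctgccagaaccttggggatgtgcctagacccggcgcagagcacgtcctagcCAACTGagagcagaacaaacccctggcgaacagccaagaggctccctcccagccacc
Cavin4: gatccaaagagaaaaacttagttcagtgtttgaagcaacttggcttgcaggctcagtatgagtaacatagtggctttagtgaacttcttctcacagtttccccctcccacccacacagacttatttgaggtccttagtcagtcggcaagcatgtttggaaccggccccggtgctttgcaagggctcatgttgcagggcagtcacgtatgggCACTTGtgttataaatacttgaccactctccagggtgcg
Cav3: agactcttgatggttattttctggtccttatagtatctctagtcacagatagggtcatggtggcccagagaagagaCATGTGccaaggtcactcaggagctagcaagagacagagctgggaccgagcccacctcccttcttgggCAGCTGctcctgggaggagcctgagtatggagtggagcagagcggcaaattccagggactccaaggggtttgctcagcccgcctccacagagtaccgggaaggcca
RefSeq windows were matched for 9 of the 10 members, 14 windows in all, and the entry for Cavin3 was missing. The motifs searched on both strands were the E-box CANNTG, which is its own reverse complement and was present in 66.2% of 32817 promoter windows of the same length, AP-1 TGANTCA (6.75%), the CArG box (1.47%), the MEF2 motif (0.509%), an ETS motif CCGGAA (12%), a GATA motif AGATAA (9.99%) and M-CAT GGAATG (12.6%). The Cav1 window held 1 E-box at 57 to 52 bases before the start, the Cavin4 window 1 at 39 to 34, and the Cav3 window 2, at 174 to 169 and 106 to 101. None of the other 6 motifs matched in these 3 windows. Among the other members AP-1 was matched in a window of Cav2 and in 1 of Pacsin2, GATA in 1 of Pacsin2, and M-CAT in windows of Cavin1 and Pacsin3. These matches describe letters and show no binding.

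The levels of the members were ordered per kilobase of exon, since levels of different genes depend on length. They also depend on the coverage by exome probes, which length does not correct. The order and shares below therefore describe counts per length and may differ from those of the transcripts. The median over the 12 tumors was 321 CPM per kilobase for Cavin1, 48.0 for Pacsin2, 36.0 for Cav1, 14.1 for Ehd2 and 10.9 for Cavin2. It was 3.81 for Pacsin3, 3.78 for Cavin4, 2.98 for Cavin3, 1.39 for Cav2 and 0.244 CPM per kilobase for Cav3. Cavin1 lay above Pacsin2, and Cav1 above Ehd2, in 12 of 12 tumors with ranges that did not overlap. All other neighbours in the order had overlapping ranges, and Pacsin3 was above Cavin4 in 5 of 12 tumors. These lengths are unions of exons. With the length of the longest coding transcript instead the order of the medians was the same, but Pacsin3 had 8.27 CPM per kilobase, beside 3.78 for Cavin4, so the closeness of that pair depends on the length used. Cav1 made up 91.6 to 97.7% of the caveolin level per length, and Cavin1 90.5 to 96.5% of the cavin level per length. Cavin4 made up 3.12 to 4.44% of the cavin level in trametinib treated tumors and 0.257 to 1.37% in the other 9 tumors.

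**Figure D1:**
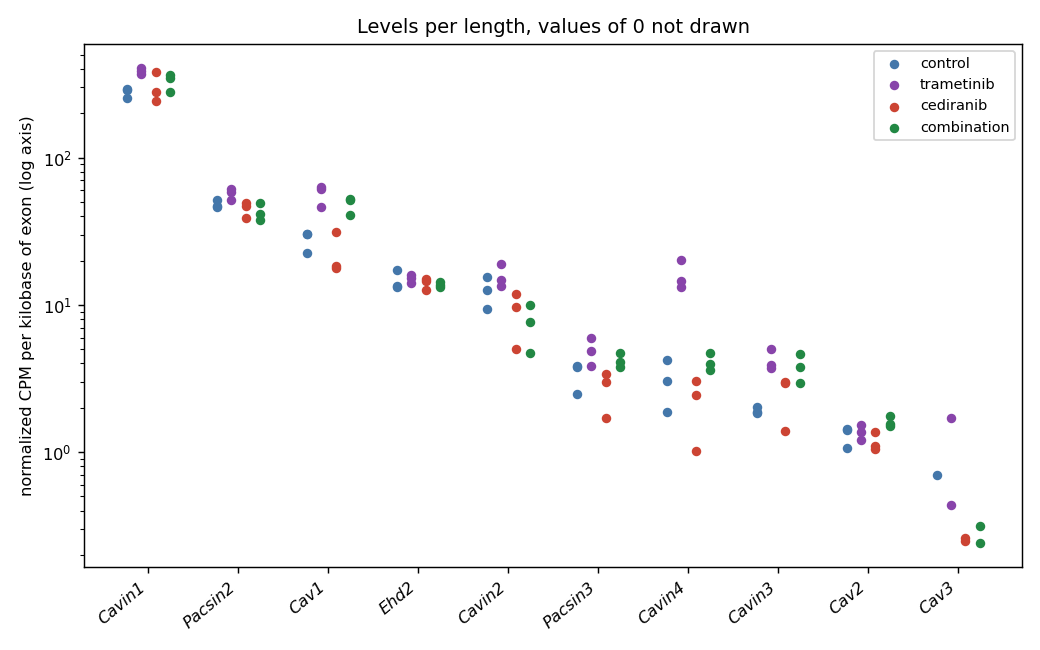
Levels of the 10 caveola genes per kilobase of exon in each of the 12 tumors on a log axis, ordered by the median over tumors and colored by treatment, with values of 0 left out. Cavin1 (median 321 CPM per kilobase) lies above all other members, and the trametinib points of Cavin4 stand above those of the other treatments.

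Caveolin 1 RNA rose with trametinib. Cav1, the scaffold protein required for caveolae outside striated muscle, lies on chromosome 6 (17306335 to 17340429, plus strand). In control replicates 1 to 3 its level was 104, 77.3 and 104 CPM, whereas trametinib treated tumors held 219, 210 and 159 CPM. The level was 63.3, 108 and 61.3 CPM with cediranib and 140, 178 and 181 CPM with the combination. All 6 tumors that received trametinib, alone or in combination, lay above all 6 that did not. The log2 fold change was 1.04 for trametinib against control (SE 0.22, 2.06-fold, FDR 0.0172, quasi-likelihood test of edgeR with Benjamini-Hochberg adjustment), 0.81 for combination against control (SE 0.22, FDR 0.0405) and 1.10 for combination against cediranib (SE 0.22, FDR 0.0136). None of these reached the minimum of 1.5. Combination and trametinib treated tumors overlapped, with a difference of -0.23 on the log2 scale (95% interval -0.71 to 0.25), as did cediranib treated and control tumors, at -0.30 (-0.78 to 0.19).

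The Cav1 fold changes moved little when a tumor was left out, while the FDR crossed 0.05 in some of these fits, which have fewer tumors. For trametinib against control the log2 fold change stayed between 0.91 and 1.16 when any 1 of the 6 tumors was left out. Its FDR by the same edgeR test was 0.0706 without control replicate 2 (log2 fold change 0.91), 0.0627 without trametinib replicate 1 (0.95), 0.0555 without trametinib replicate 2 (0.99) and 0.157 without both muscle-rich libraries (0.86). For combination against control the log2 fold change ran from 0.68 to 0.92 and the FDR from 0.0526 to 0.136 when any 1 of the 6 tumors was left out. For combination against cediranib the log2 fold change ran from 0.97 to 1.42, and the FDR was over 0.05 only without cediranib replicate 1 (0.0587, log2 fold change 0.98).

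Cav2, which needs Cav1 to reach the cell surface, and Cav3 were low. Cav2 (chromosome 6, 17281185 to 17287438, plus strand) had 4.68, 3.55 and 4.75 CPM in control, 5.08, 4.54 and 4.02 with trametinib, 3.50, 3.69 and 4.59 with cediranib and 5.15, 4.99 and 5.85 CPM with the combination. Its log2 fold change was 0.07 for trametinib (SE 0.21, 95% interval -0.40 to 0.54) and 0.30 for the combination against control (SE 0.21, FDR 0.399, edgeR with Benjamini-Hochberg adjustment). The combination treated tumors did not overlap control or cediranib treated tumors. Cav1 and Cav2 overlap an antisense gene, Gm15581, at gene level but not in exons.

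Cav3, the caveolin of muscle (chromosome 6, 112459505 to 112472872, plus strand), did not pass the filter and was not tested. It had 0, 8 and 0 counts in control, 0, 17 and 6 with trametinib, 3, 0 and 3 with cediranib and 0, 4 and 3 counts with the combination. The highest values, 1.98 CPM in trametinib replicate 2 and 0.811 CPM in control replicate 2, were in the tumors with the most skeletal muscle marker RNA.

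Cavin1, the cavin that recruits the others and is needed for the coat, had the highest level per length of the members (chromosome 11, 100956733 to 100970551, minus strand). Its level was 918, 1027 and 1058 CPM in control, 1397, 1465 and 1327 with trametinib, 1375, 999 and 875 with cediranib and 1318, 997 and 1243 CPM with the combination. Trametinib treated tumors lay above all control and all combination treated tumors. The log2 fold change was 0.48 for trametinib against control (SE 0.16, 95% interval 0.12 to 0.84, FDR 0.112, edgeR with Benjamini-Hochberg adjustment), which did not pass. The ratio of Cavin1 to Cav1 in CPM per kilobase was 8.49 to 12.8 in control, 6.13 to 8.03 with trametinib, 8.89 to 20.8 with cediranib and 5.37 to 9.02 with the combination.

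Cavin2, a phosphatidylserine-binding cavin of endothelium and other tissues (chromosome 1, 51289126 to 51302960, plus strand), had its lowest group mean in combination treated tumors. The values were 28.4, 47.3 and 38.6 CPM in control, 41.0, 58.0 and 45.1 with trametinib, 29.6, 36.2 and 15.3 with cediranib and 23.3, 14.4 and 30.6 CPM with the combination. Combination treated tumors lay below all trametinib treated tumors, at a log2 difference of -1.07 (SE 0.33, FDR 0.123, edgeR with Benjamini-Hochberg adjustment). This comparison passed by the Wald test of DESeq2 (FDR 0.0296) and by edgeR's likelihood ratio test (FDR 0.0437). Against control the difference was -0.74 (SE 0.33, FDR 0.169 by edgeR), with overlapping groups.

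Cavin3, a cavin that binds protein kinase C delta, rose with trametinib from a low level (chromosome 7, 105480083 to 105482300, minus strand). It had 3.07, 3.34 and 3.13 CPM in control and 8.35, 6.52 and 6.20 CPM in trametinib treated tumors. The level was 5.00, 4.92 and 2.30 CPM with cediranib and 7.68, 6.26 and 4.92 CPM with the combination. Control tumors lay below all tumors that received trametinib, and the cediranib treated tumors ran from below control into the range of the combination. The log2 fold change was 1.14 for trametinib against control (SE 0.30, 2.20-fold, FDR 0.0421, edgeR with Benjamini-Hochberg adjustment) and 0.98 for the combination (SE 0.30, FDR 0.0564). Over 14 alternative settings, each with its own test, the FDR for the combination ran from 0.0314 to 0.161 and was under 0.05 in 5. With any 1 of the 6 tumors left out, the log2 fold change for trametinib stayed between 1.00 and 1.21 but the FDR was 0.0749 to 0.138 in the smaller fit, and without both muscle-rich libraries they were 1.23 and 0.157. Exons of Cavin3 overlap those of the antisense gene Gm45667, and no source used here gives the strand setting of the counting, so reads of the pair cannot be told apart.

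**Figure D2:**
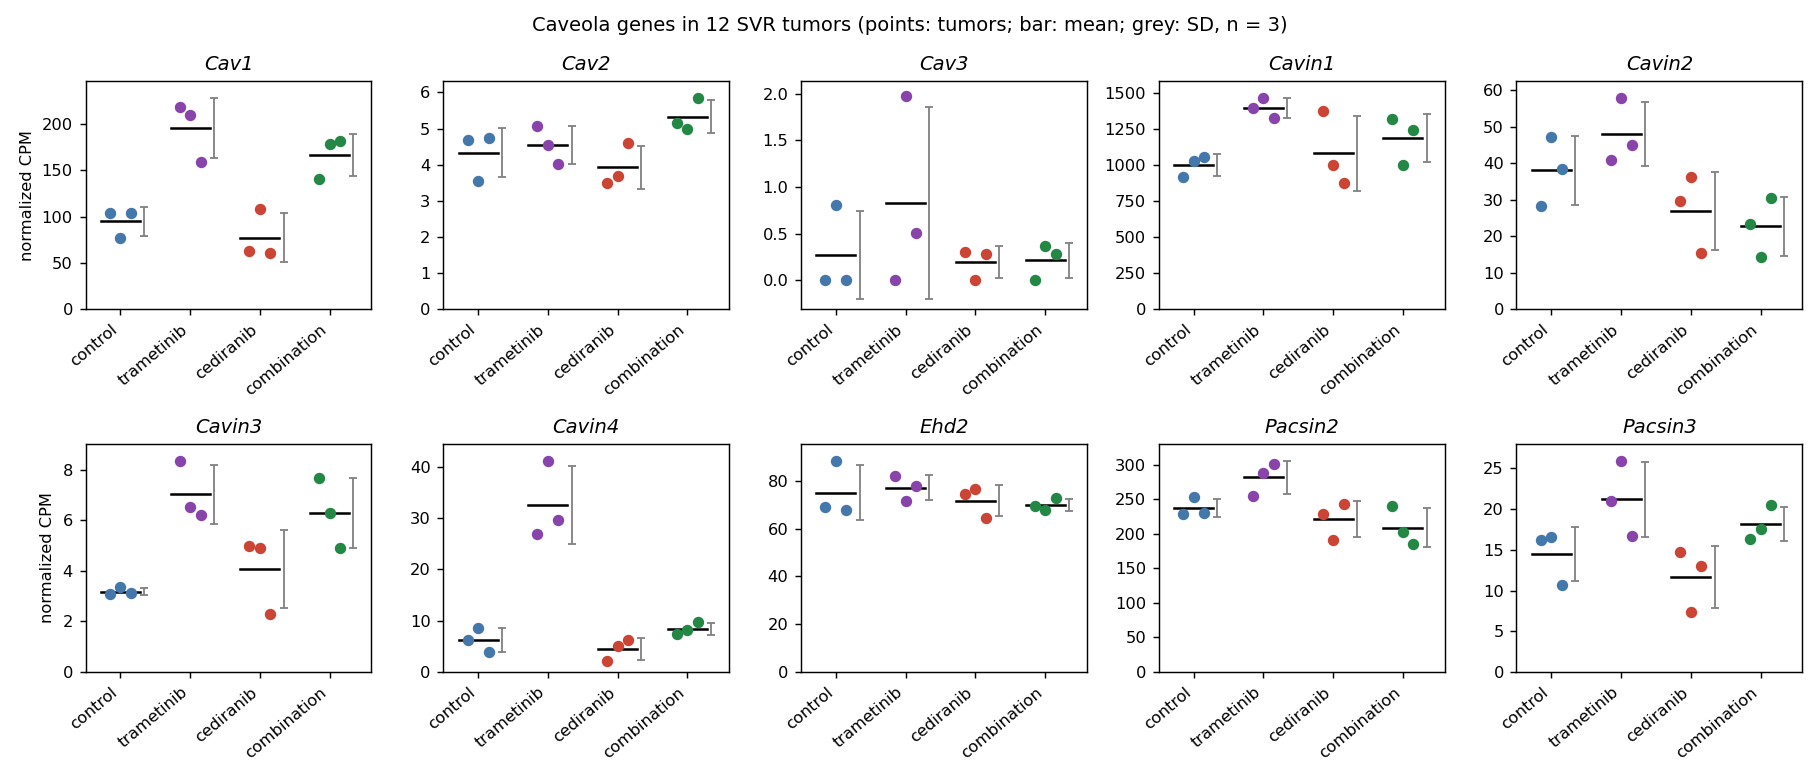
Normalized CPM of the 10 caveola genes in each tumor, by treatment, with the mean as a black bar and the SD (n = 3) in grey. In Cav1 the 6 tumors that received trametinib lie above the 6 that did not, and in Cavin4 the 3 trametinib treated tumors (27.0 to 41.2 CPM) lie above all others.

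Cavin4 RNA was high in tumors treated with trametinib alone. Cavin4, also named MURC, is the cavin of heart and skeletal muscle (chromosome 4, 48663514 to 48673502, plus strand) and overlaps no other annotated gene. It had 6.22, 8.62 and 3.84 CPM in control, 27.0, 41.2 and 29.6 with trametinib, 2.10, 5.01 and 6.22 with cediranib and 7.37, 8.17 and 9.75 CPM with the combination. In counts, this is 38 to 85 in control, 297 to 354 with trametinib, 21 to 65 with cediranib and 73 to 105 with the combination. Trametinib treated tumors lay above the other 9 tumors, and combination treated tumors overlapped control tumors. The log2 fold change was 2.39 for trametinib against control (SE 0.37, 5.23-fold), -0.48 for cediranib (SE 0.37) and 0.44 for the combination (SE 0.36). Combination treated tumors differed from trametinib treated tumors by -1.95 (SE 0.36, 3.86-fold lower) and from cediranib treated tumors by 0.92 (SE 0.37). Since this pattern was the ground for choosing Cavin4, no p-value is given.

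Skeletal muscle marker RNA was set beside Cavin4, a muscle gene, in each tumor. In trametinib replicate 1 the markers summed to 342 CPM and Cavin4 was at 27.0 CPM. In control replicate 2 they summed to 22021 CPM and Cavin4 was at 8.62 CPM. Among trametinib treated tumors Cavin4 was highest in replicate 2, where the markers summed to 33855 CPM. Ckm, the muscle creatine kinase, had 3.18, 315 and 25.9 CPM in trametinib replicates 1 to 3, against 2.64, 291 and 0 CPM in control. Without both muscle-rich libraries the log2 fold change of Cavin4 was 2.48 for trametinib against control and -1.75 for combination against trametinib. By the same edgeR test, 0 of 21 tested skeletal muscle markers were called for trametinib against control at either rule. Their median log2 fold change was 0.65, with standard errors of 0.77 (Tnni1) to 2.10 (Myh4). The 3 tested markers of muscle progenitors and regenerating fibers had a median of 2.81 in that comparison, beside the 2.39 of Cavin4, and 0 were called. For combination against trametinib 0 of the 21 skeletal muscle markers were called, with a median of -4.46. The 3 progenitor and regenerating fiber markers then had a median of -3.71, in the same direction as the -1.95 of Cavin4. The skeletal muscle markers summed to 86.3 to 1040 CPM in combination treated tumors, a range that holds the 342 CPM of trametinib replicate 1, and Cavin4 was at 7.37 to 9.75 CPM in the former and 27.0 CPM in the latter. The 8 markers of muscle progenitors and regenerating fibers summed to 0.999 CPM in trametinib replicate 1, 163 in replicate 2 and 33.7 CPM in replicate 3, with Myog, a regulator of muscle differentiation, at 0, 11.4 and 0.921 CPM. The part of muscle cells in the Cavin4 result was not tested, and Cavin4 was selected on its values in these same tumors.

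**Figure D3:**
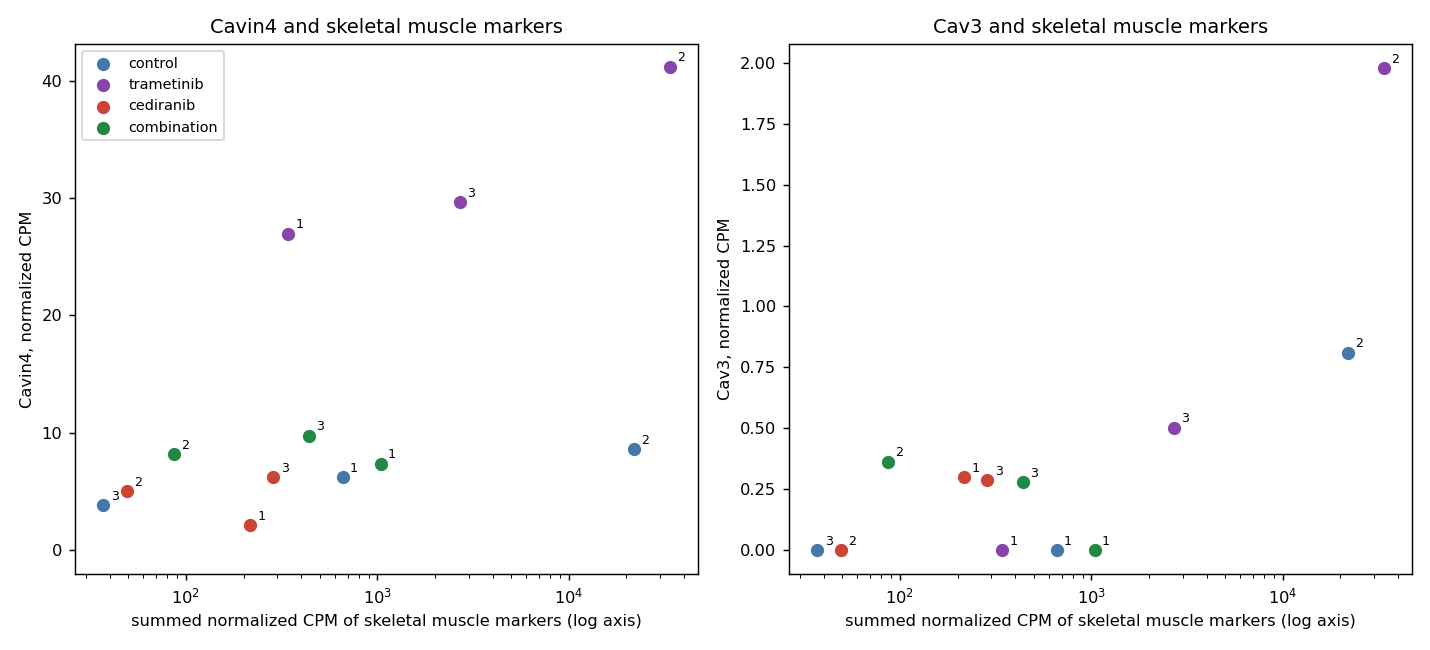
Normalized CPM of Cavin4 (left) and Cav3 (right) against the summed CPM of 24 skeletal muscle markers on a log axis, 1 point per tumor, colored by treatment and numbered by replicate. Cavin4 is at 27.0 CPM in trametinib replicate 1 at a marker sum of 342 CPM and at 8.62 CPM in control replicate 2 at 22021 CPM, and Cav3 is highest in the 2 tumors with the highest marker sums.

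Ehd2, the ATPase at the neck (chromosome 7, 15946958 to 15967567, minus strand), varied least, from 64.3 to 88.5 CPM over the 12 tumors. Its log2 fold change against control was 0.04 with trametinib (95% interval -0.23 to 0.31), -0.07 with cediranib (-0.34 to 0.21) and -0.10 with the combination (-0.38 to 0.17). Pacsin2, the widely expressed F-BAR member (chromosome 15, 83375607 to 83464606, minus strand), had 229, 253 and 230 CPM in control, 255, 289 and 302 with trametinib, 229, 192 and 243 with cediranib and 240, 202 and 185 CPM with the combination. Trametinib treated tumors lay above control and above combination treated tumors, the latter differing by -0.43 (SE 0.13, FDR 0.119 by edgeR, 0.0423 by DESeq2, both with Benjamini-Hochberg adjustment).

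Pacsin3, the F-BAR member abundant in muscle (chromosome 2, 91255954 to 91264679, plus strand), had 16.3, 16.6 and 10.7 CPM in control, 21.0, 26.0 and 16.7 with trametinib, 14.7, 7.38 and 13.0 with cediranib and 16.4, 17.6 and 20.5 CPM with the combination. The lowest trametinib treated tumor and the highest control tumor differed by less than 0.1 CPM. The log2 fold change for trametinib against control was 0.54 (SE 0.26, FDR 0.275, edgeR with Benjamini-Hochberg adjustment), and 0.48 without both muscle-rich libraries. Exons of Pacsin3 overlap the antisense gene Gm17281, and Pacsin2 overlaps Gm5417 on its own strand.

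Counted together without Cavin4, the 8 other members tested were called 0 times at the FDR and fold threshold by edgeR's quasi-likelihood test in each comparison, and also 0 times by its likelihood ratio test and by DESeq2. The share of all 12897 genes called was 2.4% for trametinib against control, 0% for cediranib, 3.61% for the combination, 0.675% for combination against trametinib and 2.45% for combination against cediranib. At an FDR of 0.05 with any fold, 2 of 8 rose with trametinib against control (Cav1 and Cavin3), against 6.12% of all genes in either direction. With the combination 1 of 8 (Cav1) rose against control and 1 of 8 (Cav1) against cediranib, beside 9.98% and 7.68% of all genes. For cediranib against control 0 of 8 passed, as did 0% of all genes, and for combination against trametinib 0 of 8 passed, beside 0.969%. At an unadjusted edgeR p under 0.05 there were 3, 0, 3, 2 and 2 members for trametinib, cediranib and the combination, each against control, and for the combination against trametinib and against cediranib. In the same order, 2665, 557, 3513, 2309 and 2980 of all 12897 genes had such a p. The 3 members for trametinib were higher. For the combination 2 were higher and 1 lower against control, 2 were lower against trametinib and 2 were higher against cediranib. For combination against trametinib, the likelihood ratio test gave 1 member (Cavin2) and DESeq2 gave 2 (Cavin2 and Pacsin2) at an FDR of 0.05, while both gave 0 for cediranib against control. The share of all genes was not counted under these 2 tests. A single member of 8, as with the combination, is a share close to the background.

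Separation of the tumors was counted in the same 8 members. For trametinib against control the groups did not overlap for 5 members, all higher with trametinib (Cav1, Cavin1, Cavin3, Pacsin2 and Pacsin3), beside 25.8% of all genes tested in either direction. For combination against control 3 members were separate and higher (Cav1, Cav2 and Cavin3; 31.3% of all genes), for combination against trametinib 3 were separate and lower (Cavin1, Cavin2 and Pacsin2; 24.2%) and for combination against cediranib 3 were separate and higher (Cav1, Cav2 and Pacsin3; 28.4%). For cediranib against control 0 of 8 were separate, beside 7.76% of all genes. The median log2 fold change of the 8 members was 0.41, -0.12 and 0.27 for trametinib, cediranib and combination against control, where the medians over all genes were 0.0057, -0.0027 and 0.0015. These comparisons share their control tumors and are not independent. The difference between the effects of cediranib with and without trametinib was tested as an interaction in the same edgeR fit. It passed for 0 of the 8 members and for 0% of all genes. An unadjusted edgeR p under 0.05 was found for 0 of 8, beside 909 of all 12897 genes. By the likelihood ratio test and by DESeq2 0 members passed.

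**Figure D4:**
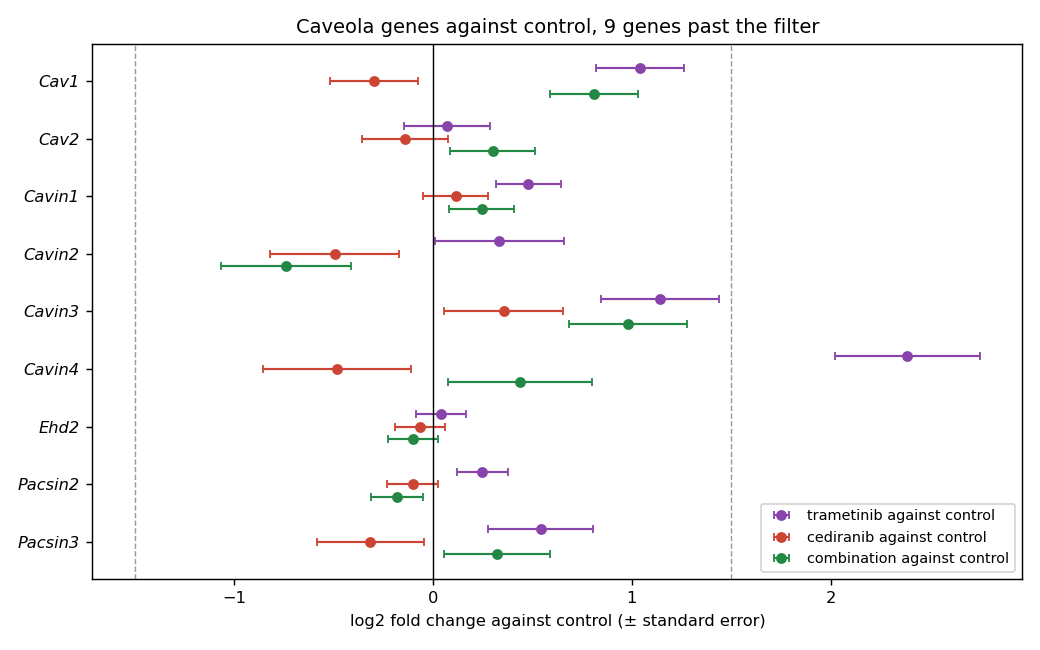
Log2 fold changes against control with their standard errors for the 9 caveola genes that passed the filter, by treatment; dashed lines mark the threshold of 1.5 in either direction. Cavin4 with trametinib (2.39), which was selected on these values, is the only point beyond the dashed lines, and Cav1 (1.04) and Cavin3 (1.14) follow.

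Other genes of the caveola and its surroundings were counted from lists, with the same edgeR test and Benjamini-Hochberg adjustment. Of 12 tested coat and neck partners, 1 rose and 1 fell with trametinib at an FDR of 0.05 with any fold, namely Dnm1 (log2 fold change 0.90, SE 0.23, FDR 0.0407), a dynamin that cuts membrane necks, and Ehd4 (-0.84, SE 0.20, FDR 0.0264), a relative of Ehd2. With the combination Dnm1 (0.94) and Flot2 (0.63) rose, and Ehd4 (-0.95) and Ehd3 (-3.86, SE 0.86, FDR 0.0172) fell, of which Ehd3 passed the fold threshold. Of 7 tested endothelial partners, Nos3, the endothelial nitric oxide synthase that Cav1 binds and inhibits, fell with trametinib (-2.45, SE 0.42, FDR 0.00515) and with the combination (-1.67, SE 0.41, FDR 0.0255). Kdr, the main VEGF receptor, fell with the combination (-2.24, SE 0.56, FDR 0.0287), and the other 5 did not pass in either comparison. Among the muscle partners, Dysf, the membrane repair protein dysferlin, fell with the combination (-1.98, SE 0.42, FDR 0.0141). Among 14 signaling and tension partners, such as Src (a kinase that phosphorylates Cav1) and Fyn, 0 passed in any of the 5 comparisons. For cediranib against control 0 genes of these 4 lists passed.

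Markers of cell types that carry caveolae were set beside Cav1. The 18 endothelium markers summed to 276 to 585 CPM in control, 133 to 199 with trametinib, 174 to 443 with cediranib and 88.2 to 159 CPM with the combination. SVR cells are endothelial, so this RNA can come from tumor or host cells. Of the 14 tested, 5 were called lower and 0 higher with trametinib, and 8 lower and 0 higher with the combination, by the edgeR rule. For Pecam1, a junction protein, the log2 fold change with trametinib was -2.38 (SE 0.47, FDR 0.0111, edgeR with Benjamini-Hochberg adjustment) and for Cdh5, VE-cadherin, it was -1.99 (SE 0.52, FDR 0.0423). In the same comparison Cav1 was 1.04 and Cavin1 0.48. The 10 fibroblast markers summed to 2238 to 21215 CPM in control, 8867 to 37165 with trametinib, 1768 to 6813 with cediranib and 3138 to 5943 CPM with the combination. Of 9 tested, 1 was called higher with trametinib (Fbln1, log2 fold change 1.61) and 1 with the combination (Fbln1, 1.59), and 0 were called lower in either. In adipocyte markers, Plin4, a lipid droplet protein, was called higher with trametinib (3.56, SE 0.82, FDR 0.0251), while Adipoq was at 0 in 10 of 12 tumors and its highest count was 2. Of 9 tested smooth muscle and pericyte markers, 0 were called with trametinib and with the combination 1 was called higher and 4 lower. For macrophage markers the calls were 0 of 10 with trametinib and 2 lower with the combination. Epidermis markers summed to 3030 to 4499 CPM in combination treated tumors and 54.8 to 63.1 CPM in trametinib treated tumors, with 58.3 to 672 in control and 49.4 to 2923 CPM in cediranib treated tumors, and 4 of 13 tested were called higher with the combination against control. The part of these cell types in the Cav1 and Cavin3 results was not tested.

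**Figure D5:**
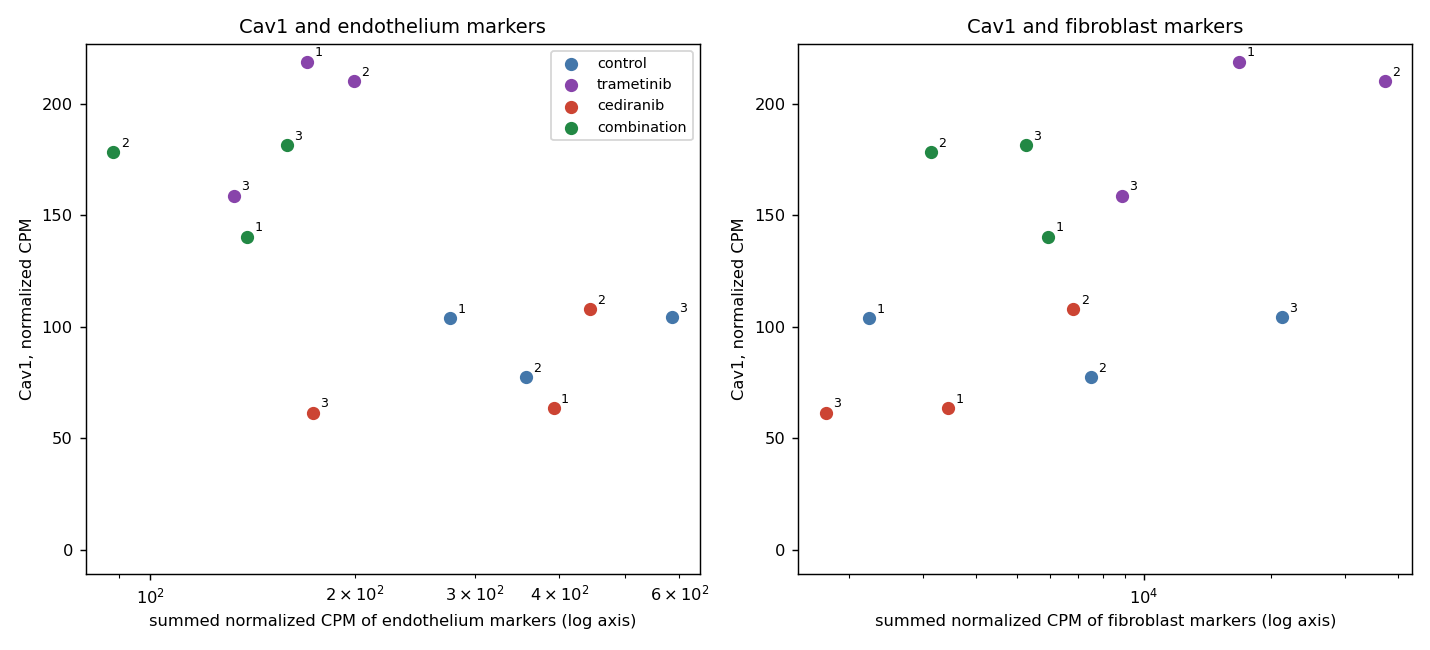
Normalized CPM of Cav1 against the summed CPM of 18 endothelium markers (left) and 10 fibroblast markers (right) on log axes, 1 point per tumor, colored by treatment and numbered by replicate. Trametinib treated tumors hold 159 to 219 CPM of Cav1 at endothelium sums of 133 to 199 CPM, and control tumors 77.3 to 104 CPM at sums of 276 to 585 CPM.

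The genes most like 3 members were read as Pearson's r of log2 CPM over the 12 tumors, among 12888 tested genes outside the members. These values are a description, since tumors of one treatment share their treatment and their stroma. Cavin4 was followed by Glp2r (r = 0.97), Filip1l (0.95), Pknox1 (0.95), Mef2c (0.94) and Cfl2 (0.94). Mef2c, a transcription factor of muscle and endothelium, had group means of 110 CPM in control, 176 with trametinib, 85.7 with cediranib and 123 CPM with the combination. Cfl2, the muscle form of the actin-severing protein cofilin, had means of 138, 236, 125 and 164 CPM in the same order. For Cav3, at its low counts, these were Myf6 (0.92), Capn3 (0.91), Klhl41 (0.91), Actc1 (0.91) and Mylk2 (0.90). For Cav1 they were Pdgfra (0.97), Sh3d19 (0.95), Zeb1 (0.94), Gm20488 (0.94) and Medag (0.94), of which Gm20488 and Medag overlap each other. Pdgfra, a growth factor receptor of fibroblasts, had group means of 14.7 CPM in control, 33.6 with trametinib, 12.2 with cediranib and 24.5 CPM with the combination.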

How the data were processed

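Raw counts per gene of 12 tumors were used as deposited. Per the labels and the paper's methods, the authors demultiplexed reads with bcl2fastq 1.8.4, aligned reads to GRCm38 with STAR 2.7.1a and made the counts with featureCounts 1.6.0. The other numeric column of the deposited table, a coding length in bases, equals the union of exons in GENCODE M21 for all 10 members. Of the counting, the annotation release and strand setting are not given in the sources used. Samples were grouped by title and treatment label, every column matched 1 tumor, and 0 pairs of libraries were identical.

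Genes were filtered with filterByExpr (minimum count 10, minimum total 15), scaled with TMM and fitted with edgeR 4.0.16 in R 4.3.3 (quasi-likelihood, 12 tumors in 1 fit, Benjamini-Hochberg over 12897 genes). The fit was tested on simulated data. The paper names edgeR and the threshold but not the test. Standard errors were obtained from each log2 fold change and the root of its F statistic. Correlations used log2 CPM with a prior count of 2 for tested genes. For Cav3, which did not pass the filter, the log2 of CPM plus 2 was used instead. A median of all log2 fold changes was taken under TMM and under library totals. DESeq2 1.42.0, edgeR's likelihood ratio test, other scalings, no filter, only the groups compared, the replicate block and leaving out tumors were the alternatives. The alternative without control replicate 2 and trametinib replicate 2 was chosen after seeing the data.

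All members were named with their values. From each list, genes past the threshold with the smallest p (up to 2 in each direction) and fixed defining markers were to be named, and Dnm1, Flot2 and Ehd4 were added after their values were seen. Of genes alike, the 5 with the highest r were named. One item of the muscle partner list is not reported here. The members and 13 lists were chosen with earlier results of these data known. Libraries held 9478865 to 11666094 counts, and since reads carried no molecular identifiers, limits set by counting cover counting error only.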

Additional observations from a re-analysis of the deposited data

How the results depend on the processing

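Cavin4 kept its direction in all 69 values from the alternatives, with a log2 fold change of 2.13 to 2.69 for trametinib against control. These refits use the counts on which Cavin4 was selected, so they give its pattern no independent support. Of the other members, 502 of 552 values kept their direction and their side of an FDR of 0.05. The count of members called at the fold threshold was 0 in every alternative run. The count at an FDR of 0.05 with any fold moved. For trametinib against control (2 members) it was 0 to 1 when 1 tumor was left out, and 0 without control replicate 2 and trametinib replicate 2. For combination against control (1 member) it was 2 with library totals, 3 with no filter on low counts, 2 by the likelihood ratio test, 2 by DESeq2, 0 when any 1 tumor was left out, and 0 without both muscle-rich libraries. For combination against trametinib (0 members) it was 1 with no filter, 1 by the likelihood ratio test and 2 by DESeq2. For combination against cediranib (1 member) it was 0 to 1 when 1 tumor was left out. The share of all genes at an FDR of 0.05 was not counted under these alternatives, so these member counts have no background beside them. The cause of the moves was not tested.

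The sign of 8 small changes turned when tumors were left out (1 at a time, or control replicate 2 and trametinib replicate 2 together). For trametinib against control Cav2 ran from -0.0534 (without control replicate 2) to 0.142, and Ehd2 from -0.0299 (without control replicate 1) to 0.226. For cediranib against control Cavin1 ran from -0.0966 (without cediranib replicate 1) to 0.235, and Ehd2 from -0.136 to 0.0687 (without control replicate 2). For combination against control Ehd2 ran from -0.175 to 0.0317 (without both muscle-rich libraries), and was 0.0279 with library totals. For combination against cediranib Cavin2 ran from -0.517 to 0.0204 (without cediranib replicate 2), Ehd2 from -0.0999 to 0.0091 (without cediranib replicate 2) and Pacsin2 from -0.177 to 0.0043 (without combination replicate 3). With library totals Ehd2 was 0.0809 and Pacsin2 0.0275 there. Library totals moved the median of all genes to 0.13, 0.12 and 0.12 for the combination against control, trametinib and cediranib.

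Replicate numbers did not pair the tumors. Deviations of tumors with the same number correlated between -0.22 and 0.36 (18 pairs), those with other numbers between -0.44 and 0.35 (36 pairs), and 4 of 12 tumors were most like their own number. With the replicate block the counts stayed at 2, 0, 1, 0 and 1 members over the 5 comparisons. For combination against control the member that passed was then Cavin3 (FDR 0.0485, edgeR with Benjamini-Hochberg adjustment), and Cav1 had an FDR of 0.0592. Depth limits Cav3, with 0 to 17 counts, Cavin3, with 24 to 92, and Cav2, with 35 to 63 counts per tumor.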
